A study of Mus musculus with 9 samples.

Results

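The genes described here are 9 transcription factors that direct helper and effector T-cell fates: Tbx21, Eomes, Gata3, Bcl6, Maf, Prdm1, Rora, Ahr and Bhlhe40. They were chosen by name as rows of the expression table and are 9 of its 41978 genes. The rule holds no measured value, but the names were chosen with earlier results of these data known. All 9 were found, 7 passed the filter on low values and were tested, and Rora and Tbx21 did not reach it in any sample. Their transcripts were measured by RNA-seq in semimature SP4 thymocytes, the CD4 single-positive cells that have passed positive selection and are being screened for self-reactivity. The 3 groups, GFPlo, GFPmed and GFPhi, had 3 samples each, and the reporter gate is the only difference that the labels give. It held about 10% of the cells at the lowest, a middle or the highest GFP level. Markers of maturation and of other kinds of T cell also differed between the groups, as given below.

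All samples came from thymi of mice with the genotype Nur77-eGFP BAC Tg on a C57BL/6 background, so the 3 groups share the transgene and none is reporter-free. Both sexes were used, at ages of 3 to 10 weeks across the study. The reporter is a bacterial artificial chromosome transgene in which regulatory sequence of Nr4a1 drives GFP, so GFP reports recent T-cell receptor signaling and not the receptor itself. Sorted cells were live, CD25-, CD69+, CD24+, CD4+ and CD8-, with 10000 cells in a sample. The comparison asks how transcripts scale with self-reactivity in the normal repertoire. The samples are bulk RNA, so fewer cells that express a gene and less RNA of it in each cell cannot be told apart.

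T-bet, encoded by Tbx21, directs the Th1 fate, and its T-box relative Eomes serves cytotoxic and memory T cells. GATA3 is required for CD4 lineage commitment in the thymus and later directs Th2 cells, RORα (Rora) contributes to the Th17 fate, and BCL6 is the repressor that directs follicular helper T cells and opposes BLIMP1 (Prdm1). c-MAF, the ligand-activated receptor AHR and the basic helix-loop-helix repressor BHLHE40 tune cytokine production, interleukin-10 among others, in several of these lineages.

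Total reads per sample ran from 7465552 to 14943774, and the levels are given as TPM, reads scaled for gene length and for the total of each sample, which the authors computed. The sort was visible in the reporter's own gene: Nr4a1 had 217 ± 32.1 TPM in GFPlo, 374 ± 28.6 in GFPmed and 840 ± 75.0 in GFPhi (SD, n = 3). Nr4a3 and the pro-apoptotic gene Bcl2l11 also rose from GFPlo to GFPhi, by 1.97 and 3.04 on the log2 scale (adjusted p 0.000962 and 3.2e-05, limma), whereas Egr2 was 0.90 lower on that scale (adjusted p 0.00129, short of the fold limit). T-cell identity was clear, with Cd3e between 1022 and 1318 TPM and Cd4 between 445 and 609 TPM over the 9 samples, while Cd8a had 5.68 to 18.8 TPM.

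A gene was called changed where the fold reached 1 on the log2(TPM + 1) scale and the Benjamini-Hochberg adjusted p from limma over 30693 genes was at most 0.05. From GFPlo to GFPhi, 1 of the 7 tested factors, Bcl6, rose and none fell. Over all genes tested, 1.26% were called higher and 0.404% lower. From GFPmed to GFPhi, Bcl6 was again the single factor called higher and none was called lower, against 0.541% and 0.15% of all genes. From GFPlo to GFPmed none of the 7 was called in either direction, where 0.0554% of all genes were called higher and 0.00326% lower. In that comparison 1 factor, Ahr, had an unadjusted p under 0.05, and limma-voom on the reads also called none.

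Sample by sample, more of the factors separated the outer groups. For 4 of the 7 tested factors (Bcl6, Bhlhe40, Eomes and Ahr) every GFPhi sample was above every GFPlo sample, a pattern that 8.26% of all genes tested had. For 1, Gata3, every GFPhi sample was below every GFPlo sample, as for 9.92% of all genes. The median log2 fold change of the 7 from GFPlo to GFPhi was 1.02, beside -0.09 over all genes tested. The filter counts samples at 1 TPM or more, and each of the 7 reached that in at least 3 samples outside GFPhi. These counts still describe the 7 that passed and not all 9. The factors were named with earlier results of these data known, so the shares over all genes are no test of them.

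**Figure D1:**
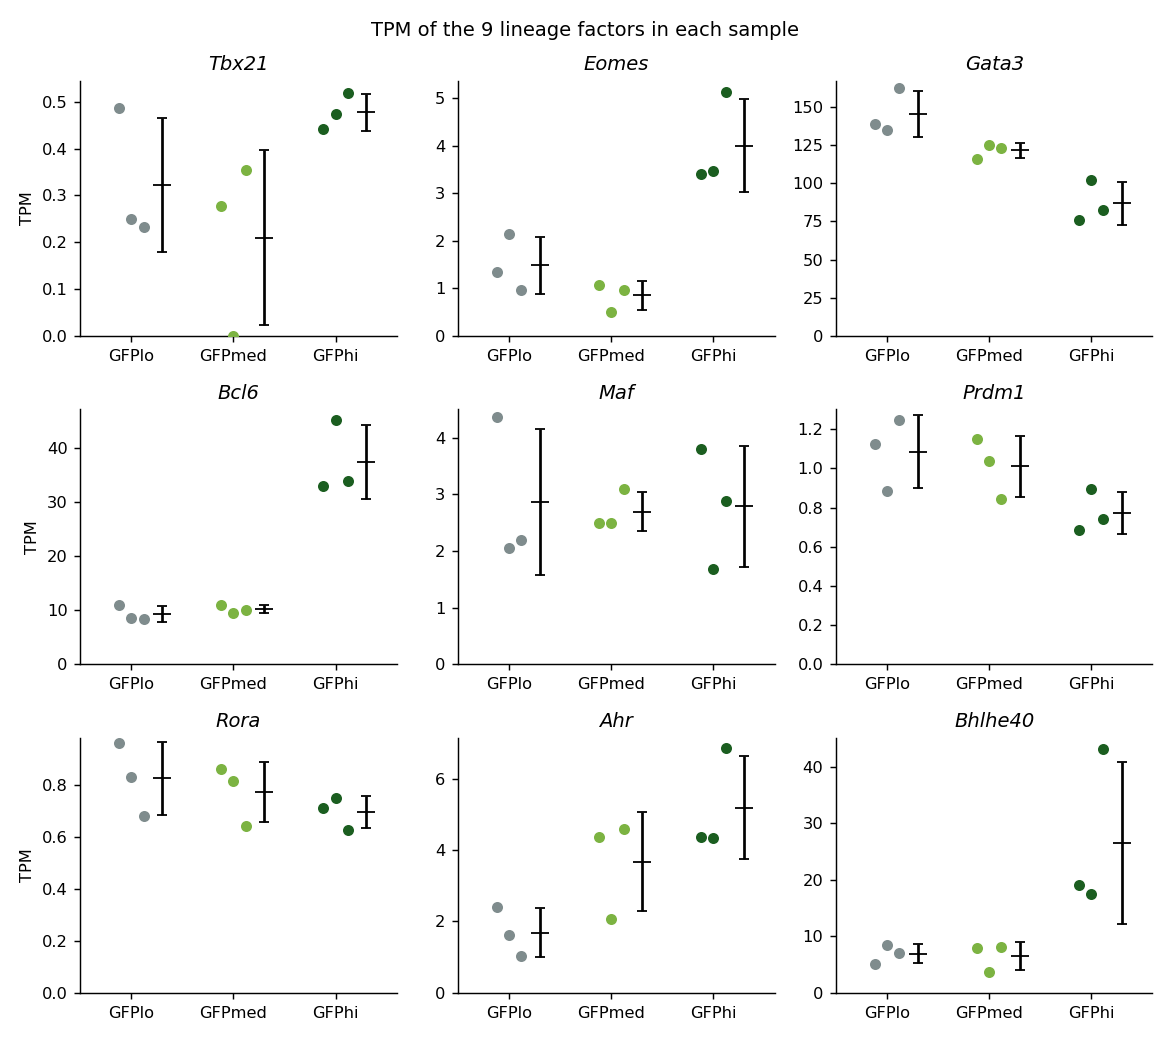
TPM (vertical axis, from 0, a scale of its own for each gene) of the 9 factors in the 3 samples of GFPlo, GFPmed and GFPhi (points), with the mean and SD of each group (black). Bcl6, Bhlhe40 and Eomes are high only in the GFPhi samples, Ahr is spread over GFPmed and GFPhi, and Gata3 steps down from GFPlo to GFPhi.

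Bcl6, the repressor that defines follicular helper T cells, was the factor with the largest log2 fold change from GFPlo to GFPhi. That of Bhlhe40 was larger without GFPhi replicate 2 (1.93 beside 1.75) and, barely, without GFPlo replicate 2 (1.848 beside 1.841). The TPM of Bcl6 was 11.1, 8.57 and 8.30 in the GFPlo samples, 11.1, 9.50 and 10.1 in the GFPmed samples, and 32.9, 45.2 and 33.9 in the GFPhi samples. All 3 GFPhi samples stood above the other 6, and the GFPlo and GFPmed samples overlapped. The mean was 4.01-fold higher in GFPhi than in GFPlo, a log2 fold change of 1.89 with a standard error of 0.17 (adjusted p 0.000932, limma). Against GFPmed the log2 fold change was 1.76 (adjusted p 0.00308, limma), while GFPmed and GFPlo differed by 0.13 with a 95% confidence interval from -0.25 to 0.52 (adjusted p 1, limma).

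Most of the difference in Bcl6 lay in the upper step of the reporter scale. The difference between the upper and the lower step was 1.63 on the log2 scale, with an unadjusted p of 0.000536 in the limma fit but an adjusted p of 0.276. Over all genes tested, 0.0195% had an adjusted p of at most 0.05 in this test of curvature, and no factor did. In reads, Bcl6 had 177 to 206 in GFPlo, 189 to 396 in GFPmed and 810 to 1183 in GFPhi, so its values rest on more counts than those of any other factor but Gata3 and, in GFPlo and GFPmed, Rora. Under each of the 21 alternative settings tried, the rise from GFPlo to GFPhi kept its call, with log2 fold changes from 1.75 to 2.06.

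Bcl6 lies on chromosome 16 of GRCm38, 23965052 to 23988852, on the minus strand. The opposite-strand gene Gm37419 shares exonic bases with it and had 3 to 9 reads in the 6 GFPlo and GFPmed samples and 20 to 39 in GFPhi. The library kit does not mark strand, so reads of both genes in the shared bases cannot be told apart. Gm37419 had at most 39 reads where Bcl6 had at least 810.

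RefSeq, in its GRCm38.p6 tables, gave promoters for 6 of the 9 factors, 7 in all, since Bcl6 has 2 listed starts. Both are shown, as the stretch of 250 bases before each start, because Bcl6 is the factor called in both comparisons with GFPhi. Neither stretch holds an exon of GENCODE M21. The upstream start is at chr16:23988853-23989102 and the downstream start at chr16:23981284-23981533, both on the minus strand, and capitals mark each match to TTCNNNGAA, the palindrome read by STAT factors and by BCL6 itself, and to the E-box CACGTG, which BHLHE40 and other helix-loop-helix factors read.
Bcl6 upstream start: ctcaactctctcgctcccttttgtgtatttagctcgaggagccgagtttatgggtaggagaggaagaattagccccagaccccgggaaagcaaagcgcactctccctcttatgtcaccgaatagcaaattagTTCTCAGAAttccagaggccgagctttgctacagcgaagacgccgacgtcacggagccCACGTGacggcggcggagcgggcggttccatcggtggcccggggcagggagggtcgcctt
Bcl6 downstream start: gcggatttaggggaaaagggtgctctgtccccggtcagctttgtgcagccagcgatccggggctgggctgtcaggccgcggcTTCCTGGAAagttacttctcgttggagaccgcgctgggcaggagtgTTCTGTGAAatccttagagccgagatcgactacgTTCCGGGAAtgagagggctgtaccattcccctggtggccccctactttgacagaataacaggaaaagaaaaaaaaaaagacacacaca

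The stretch before the upstream start of Bcl6 holds 1 TTCNNNGAA and 1 CACGTG, and that before the downstream start holds 3 TTCNNNGAA and no CACGTG. Of the 32851 promoters in the tables, 7.02% hold TTCNNNGAA and 6.02% hold CACGTG in the same length, both strands searched. Of the 3 palindromes before the downstream start, 1 shares bases with a match to GGAAA, the core read by NFAT, which 55.6% of promoters hold. The NR4A octamer AAAGGTCA, held by 1.34% of promoters, was in none of the 7 stretches, and the AP-1 motif TGANTCA, held by 6.75%, was in that of Prdm1 alone. The motifs were chosen with the values of the factors known, a match is a description of the letters and not a bound site, and the absence of a match says nothing of a factor's binding elsewhere.

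Bhlhe40, a repressor of interleukin-10 that supports inflammatory cytokine production, had the second-largest difference between the outer groups. It had 5.15, 8.49 and 7.11 TPM in GFPlo, 7.90, 3.66 and 8.12 in GFPmed, and 19.1, 17.6 and 43.1 in GFPhi. Every GFPhi sample was above the other 6, and GFPhi replicate 3 was far above the other two. The log2 fold change was 1.71 with a standard error of 0.40 against GFPlo (adjusted p 0.0682, limma) and 1.81 against GFPmed (adjusted p 0.0897, limma), so it passed neither test. On the reads, 19 to 39 in GFPlo and 91 to 204 in GFPhi, limma-voom called Bhlhe40 higher against GFPlo (1.86, adjusted p 0.00154) and against GFPmed (1.95, adjusted p 0.00118). Without GFPhi replicate 3 the log2 fold change against GFPlo in the TPM fit was 1.31 (adjusted p 0.154). The opposite-strand gene 0610040F04Rik shares exonic bases with Bhlhe40 and had 6 to 43 reads, with GFPlo and GFPhi samples overlapping.

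Eomes, the T-box factor of cytotoxic and innate-like T cells, was low in every sample and highest in GFPhi. Its TPM was 1.34, 2.15 and 0.957 in GFPlo, 1.08, 0.513 and 0.972 in GFPmed, and 3.41, 3.47 and 5.13 in GFPhi. The GFPhi samples did not overlap either group, and the GFPlo and GFPmed samples overlapped. The log2 fold change was 1.02 with a standard error of 0.27 against GFPlo (adjusted p 0.0961, limma). Against GFPmed it was 1.43 with an adjusted p of 0.05004, just past the limit of 0.05. These values rest on 5 to 22 reads in the GFPlo and GFPmed samples and 40 to 54 in GFPhi. The opposite-strand gene Gm33460 shares exonic bases with Eomes and had 2 to 9 reads in the GFPlo and GFPmed samples and 6 to 14 in GFPhi, so it is not small beside Eomes outside GFPhi. Limma-voom on those reads gave 2.17 against GFPmed (adjusted p 0.00991) and 1.45 against GFPlo (adjusted p 0.0586).

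Tbx21, which encodes T-bet, was near the limit of detection throughout. It had 11, 7 and 6 reads in GFPlo, 12, 0 and 8 in GFPmed and 16, 15 and 15 in GFPhi, or 0.232 to 0.487, 0 to 0.354 and 0.441 to 0.518 TPM. The count of 0 in GFPmed replicate 2 allows up to 0.332 RPM (reads scaled to the sample's total). The GFPhi samples lay above those of GFPmed but overlapped those of GFPlo. Left out by the filter, Tbx21 was tested on its reads by limma-voom, where the log2 fold change was 0.64 from GFPlo to GFPhi with a 95% confidence interval from -0.66 to 1.93 (adjusted p 0.828), and 1.83 from GFPmed to GFPhi (adjusted p 0.471). After adjustment, a difference in Tbx21 was not detectable at this depth.

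Ahr, the receptor for environmental and dietary ligands that supports Th17 and interleukin-22 producing cells, was the only one of the 4 factors with higher GFPhi samples whose GFPmed mean was closer to GFPhi than to GFPlo. It had 2.40, 1.63 and 1.04 TPM in GFPlo, 4.36, 2.07 and 4.60 in GFPmed, and 4.38, 4.33 and 6.84 in GFPhi. The GFPhi samples were above those of GFPlo and overlapped those of GFPmed, where replicate 2 lay among the GFPlo values. The log2 fold change from GFPlo to GFPhi was 1.21 with a standard error of 0.33 (adjusted p 0.112, limma), from GFPlo to GFPmed 0.78 (unadjusted p 0.0471, adjusted p 1) and from GFPmed to GFPhi 0.43 (adjusted p 0.79). Limma-voom on the reads, 41 to 83 in GFPlo and 210 to 303 in GFPhi, called Ahr higher from GFPlo to GFPhi (1.70, adjusted p 0.000226). The opposite-strand gene Gm48236 shares exonic bases with Ahr and had 8 to 14 reads in GFPlo and 20 to 34 in GFPhi.

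Gata3, the most abundant factor, went the other way and was lowest in GFPhi. Its TPM was 138, 135 and 162 in GFPlo, 116, 125 and 123 in GFPmed, and 75.6, 102 and 82.1 in GFPhi. The 3 groups did not overlap, and the samples stepped down from GFPlo through GFPmed to GFPhi. The GFPhi mean was 0.597 of the GFPlo mean, a log2 fold change of -0.74 with a standard error of 0.12 and a 95% confidence interval from -1.03 to -0.46. Its adjusted p of 0.0149 (limma) passed the limit, but the fold did not, so Gata3 was not called. From GFPlo to GFPmed the log2 fold change was -0.25 (adjusted p 1, limma) and from GFPmed to GFPhi -0.49 (adjusted p 0.123, limma). Of the 21 alternative settings, 17 kept the adjusted p from GFPlo to GFPhi within the limit. The exceptions were median-of-ratios scaling (0.343), a fit of only the 2 groups (0.0717) and the fits without GFPlo replicate 3 (0.0578) or GFPhi replicate 3 (0.0673).

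Gata3 lies on chromosome 2, 9857078 to 9890034, on the minus strand, and its RefSeq promoter is shown because Gata3 is the factor whose samples separated in the other direction. The 250 bases, chr2:9878601-9878850, overlap an exon of the antisense gene Gm13256. That gene had 313 to 427 reads in GFPlo, 273 to 521 in GFPmed and 242 to 325 in GFPhi, where Gata3 had 1614 to 3417 over the 9 samples. Reads of the bases that the 2 genes share cannot be assigned to a strand. A same-strand gene, 9230102O04Rik, also shares exonic bases with Gata3, and its reads were not analysed. Capitals mark the 2 matches to the NFAT core, on the reverse strand, and none of the other 4 motifs has a match.
Gata3: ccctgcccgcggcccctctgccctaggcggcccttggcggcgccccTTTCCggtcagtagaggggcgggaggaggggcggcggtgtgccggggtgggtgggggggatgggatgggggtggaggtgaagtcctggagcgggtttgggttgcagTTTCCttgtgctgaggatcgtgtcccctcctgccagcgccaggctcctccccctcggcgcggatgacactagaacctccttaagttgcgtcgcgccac

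Maf, a driver of interleukin-4 and interleukin-10 production, showed no difference between the groups larger than the spread within them. It had 4.36, 2.05 and 2.19 TPM in GFPlo, 2.50, 2.49 and 3.10 in GFPmed, and 3.80, 1.68 and 2.89 in GFPhi. In each outer group replicate 1 was the highest, and all 3 groups overlapped. The log2 fold change from GFPlo to GFPhi was -0.02, and its 95% confidence interval, from -0.75 to 0.71, leaves room for a change of either sign (adjusted p 0.990, limma). Its sign turned under 5 of 20 alternative settings.

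Prdm1, which encodes BLIMP1, the factor that BCL6 opposes, was low. It had 1.13, 0.886 and 1.25 TPM in GFPlo, 1.15, 1.04 and 0.843 in GFPmed, and 0.686, 0.893 and 0.743 in GFPhi. GFPhi held the 2 lowest values of the 9, but the groups overlapped. The log2 fold change from GFPlo to GFPhi was -0.23 with a 95% confidence interval from -0.63 to 0.16 (adjusted p 0.672, limma). Prdm1 reached 1 TPM in 4 samples, just inside the filter, with 39 to 102 reads per sample.

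Rora, a nuclear receptor gene that contributes to the Th17 fate, was measured by 226 to 581 reads per sample, yet it never reached 1 TPM. The authors' TPM divides reads by the average genomic stretch that a gene's transcripts cover, with introns counted, and the 734461-base Rora locus on chromosome 9 is long. Its TPM was 0.960, 0.832 and 0.682 in GFPlo, 0.861, 0.813 and 0.643 in GFPmed, and 0.710, 0.748 and 0.626 in GFPhi, so the 3 groups overlapped. By limma-voom on the reads, the log2 fold change from GFPlo to GFPhi was -0.17 with a 95% confidence interval from -0.57 to 0.22 (adjusted p 0.855).

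**Figure D2:**
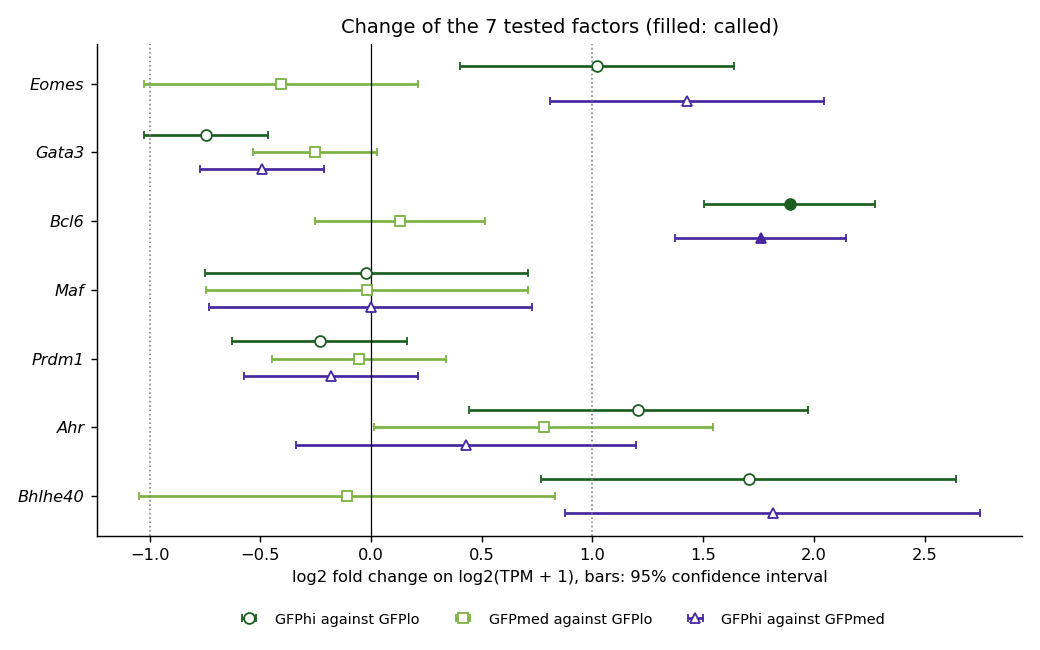
log2 fold change on log2(TPM + 1) (horizontal axis) of the 7 tested factors in the 3 comparisons of groups, with 95% confidence intervals. Filled symbols were called changed, open symbols were not, and dotted lines mark the fold limit. Bcl6 is filled at 1.89 and 1.76 and its GFPmed against GFPlo value is 0.13.

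For levels between genes, reads were divided by exonic length and by the sample's total reads (RPKM), since the spans behind the TPM differ between genes. On that scale Gata3 led with a mean of 59.9 over the 9 samples, followed by Bcl6 (6.99), Rora (2.71), Ahr (2.61), Bhlhe40 (1.39), Prdm1 (1.05), Maf (0.896), Eomes (0.555) and Tbx21 (0.406). Gata3 stood clear of Bcl6 in every group. Within each sample Bcl6 was above Rora and Ahr above Bhlhe40, but the samples of Bcl6 and Rora overlapped in GFPlo, and those of Ahr and Bhlhe40 in GFPlo and GFPhi. Prdm1 and Maf overlapped in all 3 groups and do not differ beyond their spread, and the order of the other neighbours depended on the group. In GFPlo, Rora (2.93 ± 0.505, SD, n = 3) was above Ahr (1.25 ± 0.512), and in GFPhi Ahr (3.88 ± 1.11) was above Rora (2.49 ± 0.201).

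A yardstick for these low levels came from 1403 olfactory and vomeronasal receptor genes, which serve sensory neurons. Their median over the 9 samples was 0.382 RPKM and the 95th percentile 2.21. Gata3 and Bcl6 were above every one of them, and Rora and Ahr were above 97.2% and 97.0%. Bhlhe40 was above 85.3%, Prdm1 above 78.0%, Maf above 73.9%, Eomes above 59.5% and Tbx21 above 51.3% of these genes. Reads of these receptor genes made up 2153 to 4634 RPM of a sample, and what they stem from was not tested. The means over the 9 samples of Bhlhe40, Prdm1, Maf, Eomes and Tbx21 were thus below the 95th percentile of these receptor genes. By group, the mean of Eomes in GFPhi, 1.06 RPKM, was below it too, but that of Bhlhe40 in GFPhi, 2.79 RPKM, was above it. The mean of Ahr was below that percentile in GFPlo (1.25 RPKM) and above it in GFPmed (2.71) and GFPhi (3.88).

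**Figure D3:**
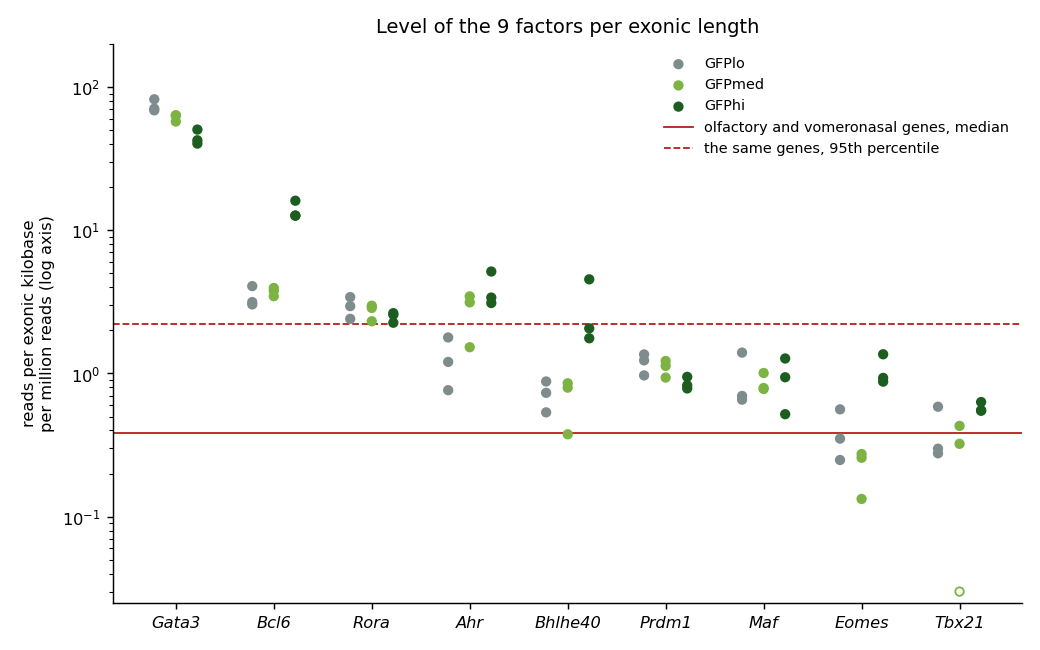
RPKM on exonic length (vertical log axis) of the 9 factors in the 3 groups, 1 point per sample. Lines give the median and the 95th percentile of 1403 olfactory and vomeronasal receptor genes, and the open point at the foot is the GFPmed sample with 0 reads of Tbx21. Gata3 and Bcl6 lie above both lines in every sample, and the 3 GFPhi samples of Eomes lie above the median line.

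Over the 9 samples, on log2(TPM + 1), Bhlhe40 and Eomes had the closest course of any pair of the 7 (Pearson r 0.936), followed by Bcl6 with Eomes (0.859) and with Bhlhe40 (0.836). Gata3 ran against Bcl6 (-0.848) and with Prdm1 (0.829), and Maf followed none of them (-0.229 to 0.224). These values describe 9 points that fall in 3 groups, so they hold the differences between groups and carry no test. Among 17362 genes with a mean of at least 5 TPM, the genes most like Bcl6 were Myb (0.992), Arhgap20 (0.989) and Prkcd (0.988). Those most like Gata3 were Nab2 (0.995), a corepressor of EGR factors, Gm16229 (0.993) and Zfp652 (0.992). For Bhlhe40 they were Hspb6, Cbx7 and Sys1 (0.948 to 0.973), for Eomes Plp2, Dis3l and Emd (0.949 to 0.955), and for Ahr Hells, Hace1 and Cep72 (0.951 to 0.964). For Maf they were Gm42646, Gm7988 and Sec14l3 (0.965 to 0.973), and for Prdm1 Mllt1, Nckap5l and Ugdh (0.940 to 0.945).

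The factors work with relatives, cytokine receptors and targets, and 8 lists of these held 109 genes, of which 87 were tested. From GFPlo to GFPhi 8 of the 87 rose and 4 fell, where 1.26% of all genes tested were called higher and 0.404% lower. The median log2 fold change of the 87 was 0.02, beside -0.09 over all genes tested. Limma-voom, which tested 94 of the 109, called 12 higher and 5 lower, beside 558 and 137 of all 27102 genes it tested. From GFPmed to GFPhi 6 rose and 1 fell in the limma fit, beside 0.541% and 0.15% of all genes tested. From GFPlo to GFPmed limma called none of the 87, 21 had an unadjusted p under 0.05, as did 1432 of all 30693 genes tested, and limma-voom called 1, Il2rb.

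The follicular helper genes that accompany BCL6 held the most calls. Of 13 tested, 4 rose from GFPlo to GFPhi and 1 fell, with a median of -0.13. Cd200, a ligand of an inhibitory receptor, went from 8.40 ± 1.53 to 41.8 ± 2.68 TPM (SD, n = 3), Slamf6, an adhesion receptor, from 12.3 ± 1.45 to 40.2 ± 1.55, Il21, the cytokine of these cells, from 10.3 ± 2.66 to 24.6 ± 1.03, and Pdcd1, the inhibitory receptor gene, from 20.03 ± 0.772 to 41.4 ± 5.22. Tox2, a high-mobility-group factor, fell from 2.39 ± 0.215 to 0.576 ± 0.0501 TPM. Cd200, Slamf6 and Pdcd1 rose again from GFPmed to GFPhi, as Bcl6 did. Cxcr5, the chemokine receptor that defines follicular helper T cells, had 0.0933 to 0.364 TPM over the 9 samples and was not tested, and Ascl2 was not analysed here. Lef1, a partner of BCL6 in early follicular helper differentiation, was lower by 0.88 on the log2 scale (adjusted p 0.00188, limma), short of the fold limit.

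Genes of the Th2 fate, which GATA3 directs, went both ways. Of 12 tested, Gfi1 and Stat5a rose and Ccr4 fell from GFPlo to GFPhi, with a median of 0.16. The chemokine receptor gene Ccr4 had 204 ± 13.3 TPM in GFPlo, 173 ± 11.2 in GFPmed and 60.5 ± 6.20 in GFPhi (SD, n = 3), a log2 fold change of -1.74 (adjusted p 9.2e-05, limma). The repressor gene Gfi1 had 10.1 ± 1.94, 10.3 ± 3.18 and 37.5 ± 5.83 TPM, and the signal transducer gene Stat5a had 45.9 ± 1.18, 58.2 ± 3.33 and 101 ± 7.42 TPM. The cytokine gene Il4 had 0.488 to 2.94 TPM over the 9 samples and was not called.

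Of 15 Th1 and cytotoxic genes tested, those of T-bet and Eomes, 1 rose and 1 fell from GFPlo to GFPhi, with a median of 0.32. Il2rb, a receptor chain for interleukin-2 and interleukin-15 and a known target of both T-box factors, went from 5.74 ± 0.0607 TPM in GFPlo to 12.7 ± 2.19 in GFPmed and 84.3 ± 13.3 in GFPhi, a log2 fold change of 3.65 (adjusted p 4.6e-05, limma). Il12rb2, the receptor chain that makes cells responsive to interleukin-12, fell from 2.95 ± 0.381 to 0.618 ± 0.0366 TPM. Of 12 Th17 genes tested 1, Il21, rose and none fell, with a median of 0.42.

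Among 16 family relatives and partners of the factors none rose and 1 fell, with a median of -0.12. Runx1, which pairs with CBFβ and acts in CD4 cells, fell from 15.5 ± 0.549 to 6.82 ± 0.469 TPM, and Runx3 was higher by 0.96 (adjusted p 0.0158, limma), short of the fold limit, and was called higher by limma-voom. None of 5 AHR pathway genes tested was called by limma or by limma-voom, with a median of -0.04, and 2 had an unadjusted p under 0.05, both lower. For the AHR target Tiparp the value was -0.57 on the log2 scale (adjusted p 0.0557, limma), beside 1.21 for Ahr itself, and the canonical target Cyp1a1 was not analysed here. None of the 13 corepressor genes used by BCL6 and BLIMP1 was called by either tool, with 3 at an unadjusted p under 0.05 and a median of 0.02. Of 7 co-inhibitory genes tested, Pdcd1 and Ctla4 rose and none fell, with a median of 0.03. Ctla4 went from 1.18 ± 0.300 to 13.3 ± 1.17 TPM, while Il10, the shared target of c-MAF and BLIMP1, had 2.76 to 5.37 TPM over the 9 samples and was not called.

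**Figure D4:**
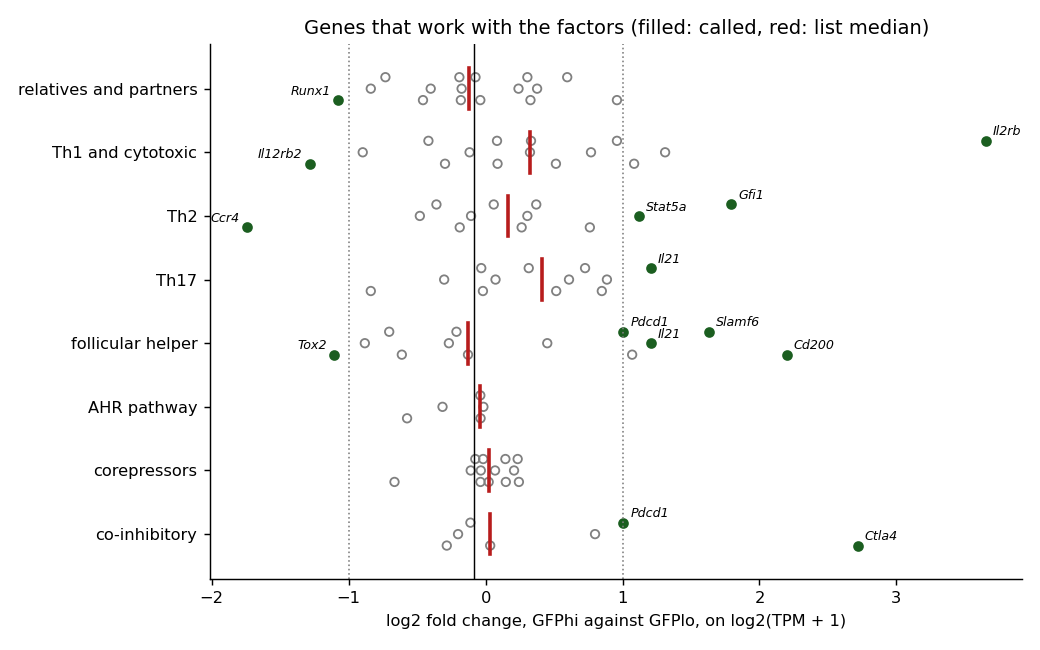
log2 fold change from GFPlo to GFPhi on log2(TPM + 1) (horizontal axis) of each tested gene in the 8 lists of genes that work with the factors. Filled points were called and are named, red bars are list medians, the black line is the median over all genes tested (-0.09) and dotted lines are the fold limit. Follicular helper genes hold 4 rises, and the AHR pathway and the corepressors hold no filled point.

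Some markers of other kinds of T cell also differed between the groups. Of 5 regulatory T-cell markers 4 rose from GFPlo to GFPhi although CD25+ cells were gated out, and limma-voom called all 5 higher. The summed levels of the 5 were 182 to 202 TPM in GFPlo, 350.5 to 431 in GFPmed and 752 to 871 in GFPhi. Tnfrsf18 was the most abundant of the 5, and no sum was taken without it. Foxp3, the factor that defines regulatory T cells, had 6.57 to 7.04, 5.69 to 7.27 and 13.9 to 18.4 TPM in the 3 groups, and its GFPlo and GFPmed samples overlapped. Of 7 tested innate-like T-cell markers Il2rb and Xcl1 rose and 5 were not called, with a median log2 fold change of 0.25. Limma-voom, which tested 8 of them, called Il2rb, Xcl1 and Cd160 higher. The sums of all 9 listed were 33.2 to 37.9, 42.0 to 46.2 and 113 to 135 TPM in the 3 groups, but without Il2rb they were 27.5 to 32.1, 30.0 to 32.8 and 35.4 to 40.9 TPM. Zbtb16, the factor that defines innate-like cells, had 0.0370 to 0.203 TPM over the 9 samples. The length behind this TPM counts introns, so the value cannot be read as absence of its transcript or of such cells. None of 3 tested natural killer cell, 4 tested B-cell and 5 tested myeloid markers was called by limma or limma-voom, and 1 of them, a myeloid marker, had an unadjusted p under 0.05. Of 3 tested markers each of CD8 T cells, double-positive thymocytes, γδ T cells and thymic epithelium, 1 was called, Cd8a, Dntt and Sox13 lower and Epcam higher in GFPhi than in GFPlo. The part of any of these cells in the values of Bcl6, Bhlhe40, Eomes and Ahr was not tested. Maturation markers moved too: S1pr1 rose from 7.65 ± 1.57 to 222 ± 9.60 TPM and Klf2 from 87.8 ± 9.41 to 537 ± 43.2, while Il7r fell from 200 ± 17.9 to 56.1 ± 3.42, and their part was not tested either.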

How the data were processed

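RNA of 9 sorted thymocyte samples was made into libraries with SMART-seq and Nextera kits, which do not mark strand. The reads were trimmed by the authors and mapped with STAR 2.7.11b (submitters' processing notes) to GRCm38 with GENCODE genes, removed duplicates and counted reads per gene, and the strand setting is not given in the sources used here. The authors deposited TPM per sample and, from DESeq2 1.34.0, the mean normalized signal of each group (read counts over size factors). The deposited log2 fold changes, adjusted p-values and call scores hold the authors' own comparisons and were not used.

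Reads per gene were solved from the TPM and the group means: 41578 genes gave whole reads (tolerance 0.001, 100% of values) and 400 could not be solved. The TPM length of 97.0% of protein-coding genes was the mean span of their transcripts in GENCODE M21, which is older than the authors' release. Exonic lengths came from the same release. PCR reads without molecular identifiers are not independent molecules, so intervals and floors on reads cover counting error only.

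Genes with at least 1 TPM in at least 3 samples were tested with limma 3.58.1 (R 4.3.3) on log2(TPM + 1), with 1 model over the 9 samples, a trended prior and Benjamini-Hochberg adjustment. Such fold changes understate those of low genes. Called means a log2 fold change of at least 1 and an adjusted p of at most 0.05, the limits of the study's methods. On simulated data the fit was checked before use. The labels call the 3 samples of a group biological replicates. Samples with the same replicate number deviated together weakly, with r from 0.01 to 0.22 over 9 pairs and a mean of 0.06. The mean over differently numbered pairs was -0.03. Deviations were taken from each group's mean, which largely fixes this value from the other, so it is no separate comparison. Nothing says whether same-numbered samples share mice. The main fit has no block, and the replicate number as a block was tried as an alternative.

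The members and the gene lists were chosen with earlier results of these data known. Named genes are the 9 factors, genes of the lists called in any comparison, sort and cell type markers, and the 3 genes most correlated with each tested factor among those with a mean of at least 5 TPM. A few further genes of the lists, such as Lef1, Runx3, Tiparp, Cxcr5, Il4 and Il10, were named after their values were seen. Promoters and their coordinates are RefSeq's. Alternatives covered the pseudocount, filters, scaling, samples, prior, block, unit and limits.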

Additional observations from a re-analysis of the deposited data

How the results depend on the processing

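Of the 427 values of a single factor recomputed under the alternatives, 417 kept their side of the threshold and 10 passed it newly, and none that was called was lost or changed sign. The count of factors called higher from GFPlo to GFPhi, 1 as reported, was 2 at a filter of 5 TPM (Bhlhe40 added) and 3 at 10 reads (Bhlhe40 and Eomes) or with limma-voom (Bhlhe40 and Ahr). Without the fold limit 1 factor, Gata3, was called lower. From GFPmed to GFPhi the count was 2 at 10 reads or without the trend (Eomes added) and 3 with limma-voom. Leaving out any 1 sample left both counts at 1. Over all genes, calls from GFPlo to GFPhi were 387 higher (252 to 360 without 1 sample, 730 without the fold limit) and 124 lower (80 to 170, 464, and 69 with median-of-ratios scaling). From GFPmed to GFPhi they were 166 higher (79 to 160, 276, 86, and 291 with limma-voom) and 46 lower (25 to 59, 187, 16, and 76 on exonic length). From GFPlo to GFPmed they were 17 higher (2 to 16, 5 with median-of-ratios scaling, 8 without the trend) and 1 lower (0 to 3, 4 at a pseudocount of 0.1, 3 in a fit of 2 groups, 2 on exonic length, and 0 at 10 reads, with median-of-ratios scaling or without the trend). With the replicate number as a block these last counts were 5 and 0, the other counts of calls moved by less than 1.5 times, and every factor kept its call. The causes were not tested.

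The samples set the limits: 3 in a group, 7465552 to 14943774 reads in each. Tbx21 and Eomes rested on 0 to 54 reads, and an adjusted p above 0.05 for Bhlhe40, Eomes or Ahr does not show that their levels were alike. Leaving out 1 sample moved the median of all genes from GFPlo to GFPhi between -0.16 and -0.003 on the log2 scale, beside -0.09 as reported.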
